A study of Homo sapiens with 4 samples.

Results

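The 4 HOX clusters of the human genome (HOXA, HOXB, HOXC and HOXD) were examined for binding of 2 forms of EVI1 in HEK293T cells, an established embryonic kidney cell line. Members are the deposited ChIP-seq peaks whose summit lies in 1 of 4 windows of the hg19 build: chr7:27120000-27260000 for HOXA, chr17:46600000-46820000 for HOXB, chr12:54320000-54460000 for HOXC and chr2:176940000-177060000 for HOXD. They number 9 of the 347 peaks of wild-type EVI1 (2.59%) and 11 of the 388 peaks of the splice form EVI1+18 (2.84%). EVI1-WT and EVI1+18 carried a 3xHA tag and were expressed for 1 day from the retroviral vector pMIGII by transient transfection, so both forms come from a construct and not from the cells' own gene. Chromatin was cut with micrococcal nuclease and precipitated with an anti-HA antibody (3F10). Each form has 1 library, with 28191547 tags kept for EVI1-WT and 27908825 for EVI1+18. Every fold and control background below rests on an input library of mock cells, against which both lists were called. The anti-HA libraries of cells transfected with pMIGII_Mock and with pMIGII_3xHA complete the series and were not analysed here, so no value of an HA precipitation without EVI1 stands beside the peaks. With 1 library per form, no difference below has a replicate error. Intervals cover counting error only. Peak lists hold no expression levels, so the cell type was not checked against markers.

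HOX genes encode homeodomain transcription factors that set position along the body axis, and within a cluster their order on the chromosome follows the order of the body regions in which they act. EVI1, the product of MECOM, is a zinc finger transcription factor of blood stem cells and a driver of a form of acute myeloid leukaemia. Several HOX genes are prominent in the same lineage: HOXA9 and HOXA10 promote self-renewal of blood progenitors and are highly expressed in many leukaemias, and HOXB4 supports expansion of blood stem cells.

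The rule names 38 HOX genes: 10 in HOXA, 10 in HOXB, 9 in HOXC and 9 in HOXD. In the order of RefSeq GRCh38.p14, the HOXA genes run from HOXA2 and HOXA3, which act in the hindbrain and neck region, through HOXA4, HOXA5, HOXA6 and HOXA7 to HOXA9, HOXA10, HOXA11 and HOXA13, which act in the limbs and the urogenital tract. HOXB runs from HOXB1 to HOXB9, with HOXB13 set apart at its end. HOXC and HOXD lie the other way round on their chromosomes, from HOXC13 down to the HOXC4, HOXC5 and HOXC6 group and from HOXD13, a digit patterning gene, down to HOXD1. The peaks are positioned in hg19 and this gene table in GRCh38.p14, so it served for names and order only. The nearest HOX gene of each peak was not assigned here, nor was the sequence under a peak read.

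Promoter sequences of the HOX genes were read instead, from the RefSeq promoter table of GRCh38.p14 (250 bases before to 50 after a gene start), because the N-terminal zinc fingers of EVI1 are known to recognise GATA-like motifs. The table held 27 windows for 20 of the 38 genes, 7 of them for HOXA3. The genes without an entry were HOXA5, HOXB2, HOXB3, HOXB4, HOXB5, HOXB6, HOXB7, HOXB8, HOXB9, HOXB13, HOXC6, HOXC8, HOXC9, HOXC10, HOXC11, HOXC12, HOXC13 and HOXD9. GATAAG, on either strand, was in 3 of the 27 HOX windows (11.1%), against 6.36% of all 35116 windows. AGATAA, which overlaps GATAAG by 5 bases, was in 2 (7.41%, against 10.3%). The longer motif GACAAGATA was in 0 of 27, against 0.0968% of all windows. The ETS-like motif TTCCTC was in 4 (14.8%, against 27.9%), in windows of HOXA3, HOXA4, HOXA11 and HOXD3. The 3 GATAAG matches are shown as the letters that a GATA-like search finds in HOX promoters, with the match in capitals and CTTATC for a match on the strand opposite to the gene. Their positions are in GRCh38.p14 and cannot be set beside the hg19 peaks.
HOXD3, chr2:176157219-176157248, plus strand: tgcgaggaagatGATAAGaatagatttcta
HOXA3, chr7:27118578-27118607, minus strand: aGATAAGcttgtatgtcttatatggcattc
HOXA3, chr7:27113929-27113958, minus strand: gccgcactagcgCTTATCtccgggccgcgg
The HOXD3 match began 76 bases before the gene start, and those of HOXA3 began 249 and 104 bases before 2 of its alternative starts. Both HOXA3 matches also contained AGATAA. A match is a description of letters, and binding at these promoters was not measured by it.

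Every HOX cluster held at least 1 peak of each EVI1 form. Counts were 3 for EVI1-WT and 6 for EVI1+18 in HOXA, 1 and 2 in HOXB, 3 and 2 in HOXC, and 2 and 1 in HOXD. EVI1+18 had more peaks in HOXA and HOXB and EVI1-WT had more in HOXC and HOXD, and all these counts are small. With peaks of −log10 q of at least 5 only, the order turned in HOXC, to 1 for EVI1-WT and 2 for EVI1+18, and HOXD had 1 of each. Joining peaks less than 500 bp apart also left 1 of each in HOXD. As a scale for the whole genome, 150 of 19285 stretches of 140 kb (0.778%) held a summit of both lists. The HOX windows are 120 to 220 kb long. Peaks stood at 14.5 per Mb in the 620 kb of the HOX windows for EVI1-WT, against 0.125 per Mb in the rest of the effective genome, and at 17.7 against 0.140 per Mb for EVI1+18. These densities are descriptions, since the windows were proposed with the peak lists known.

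**Figure D1:**
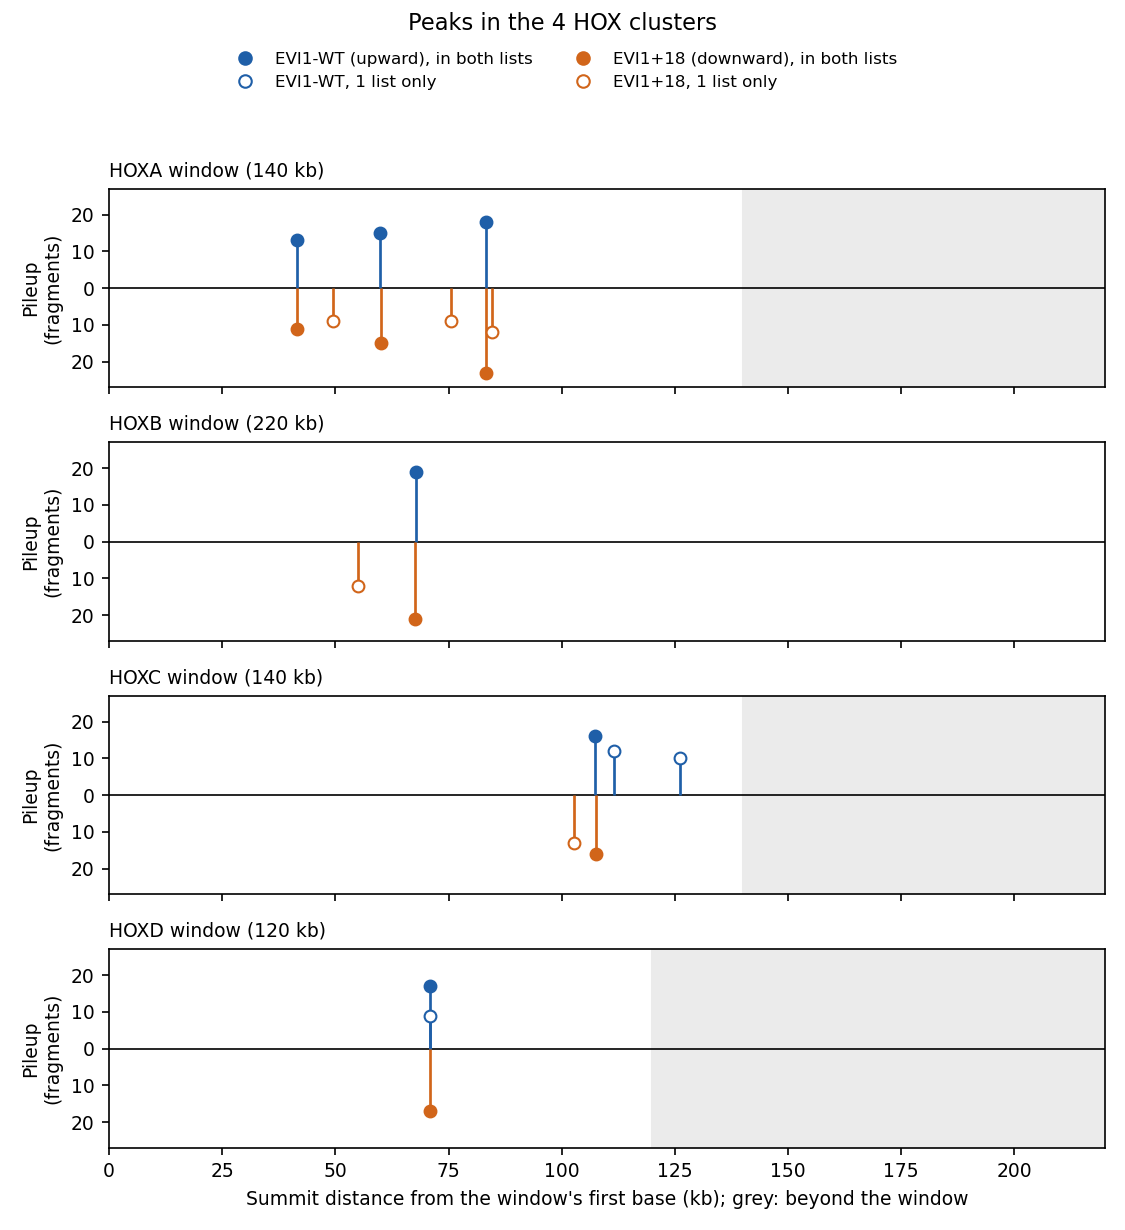
Position and summit pileup of every peak in the 4 HOX windows. The horizontal axis is the distance of the summit from the first base of the window in kb, and the vertical axis is the pileup in fragments, upward for EVI1-WT and downward for EVI1+18. Filled points are peaks that overlap a peak of the other list and open points are peaks of 1 list only. Each cluster has at least 1 filled pair, and pileups lie between 9 and 23 fragments.

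HOX peaks were short and covered little of each cluster. Peak length ranged from 60 to 206 bp in EVI1-WT and from 61 to 302 bp in EVI1+18. Peaks covered 541 bp of the HOXA window with EVI1-WT and 806 bp with EVI1+18. In HOXB the covered lengths were 196 and 339 bp, in HOXC 339 and 352 bp, and in HOXD 231 and 209 bp. Over the 4 clusters this made 1307 bp at a mean pileup of 14.3 fragments in EVI1-WT and 1706 bp at a mean pileup of 14.4 in EVI1+18. The pileup is the number of ChIP fragments over the summit. The longer covered length of EVI1+18 thus came with nearly the same mean height.

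Within their own lists the HOX peaks were of middling height. The EVI1-WT pileups ran from 9 to 19 (median 15) and those of EVI1+18 from 9 to 23 (median 13), while the median over all peaks was 13 in either list. The deposited fold enrichment, the authors' ratio of summit pileup to control background, had a median of 7.03 at the EVI1-WT HOX peaks and of 7.12 over that list. In EVI1+18 these medians were 8.37 and 7.15. It exceeded its list's median at 4 of 9 EVI1-WT and 7 of 11 EVI1+18 HOX peaks. HOX peaks were longer than their list's median at 7 of 9 and 6 of 11. Their median length was 168 bp in EVI1-WT, where all peaks had a median of 97 bp, and 133 bp in EVI1+18, where all peaks had a median of 120 bp. None of the HOX peaks reached the pileups near 100 fragments seen at the strongest peaks of either list. In either list the group of neighbouring peaks with the highest median fold lay on chromosome 3. Without that group and mitochondrial peaks, the peaks outside the HOX windows had median pileups of 13 in EVI1-WT and 12 in EVI1+18. Their median folds were 7.03 and 7.00.

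**Figure D2:**
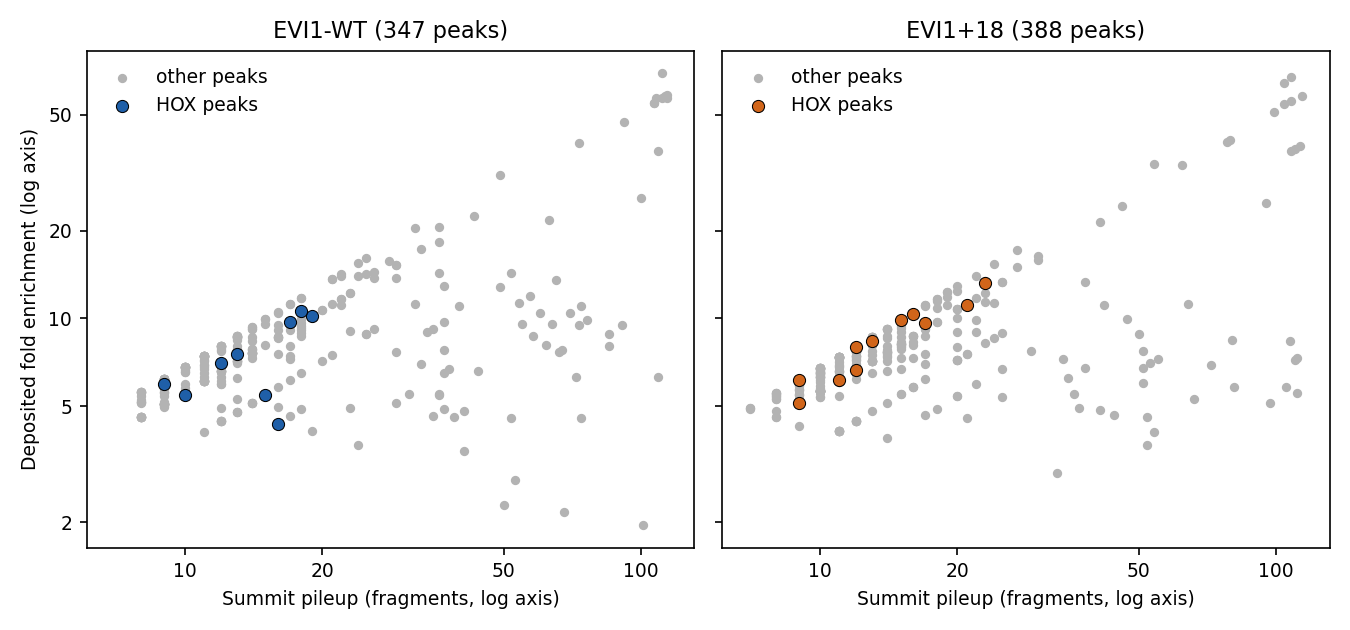
Deposited fold enrichment against summit pileup for all 347 EVI1-WT peaks (left) and all 388 EVI1+18 peaks (right), both axes logarithmic. Grey points are peaks outside the HOX windows and coloured points are the 9 and 11 HOX peaks. Most HOX points lie on the band where fold rises with pileup, and the EVI1-WT points with pileups of 15 and 16 lie below it.

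In both lists 6 HOX peaks had a counterpart in the other, forming 6 one-to-one sites: 3 in HOXA and 1 in each of HOXB, HOXC and HOXD. Sharing, by an overlap of at least 1 bp, was 6 of 9 EVI1-WT peaks (66.7%, exact Clopper-Pearson 95% interval 29.9 to 92.5), where 62.2% of all EVI1-WT peaks were shared. It was 6 of 11 EVI1+18 peaks (54.5%, 95% interval 23.4 to 83.3), where 55.4% of all EVI1+18 peaks were shared. Both shares were close to those of the whole lists.

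The first HOXA site, at chr7:27161372-27161510 in EVI1-WT, had a pileup of 13 in EVI1-WT and 11 in EVI1+18. After division by kept tags, EVI1-WT stood at 1.17 times EVI1+18 (exact conditional binomial 95% interval 0.48 to 2.88). The EVI1+18 peak there, at chr7:27161411-27161471, was 61 bp long and lay wholly within the 139 bp of the EVI1-WT peak. It was the only shared site at which EVI1-WT had the higher pileup.

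The second HOXA site, at chr7:27179864-27180069 in EVI1-WT and chr7:27179767-27180068 in EVI1+18, had a pileup of 15 in both. The peaks ended 1 bp apart, while the EVI1+18 peak began 97 bp earlier and was 302 bp long, the longest HOX peak. The summits lay 103 bp apart, the farthest of the 6 sites.

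The third HOXA site, at chr7:27203249-27203444 in EVI1-WT and chr7:27203240-27203428 in EVI1+18, had the highest pileup among the EVI1+18 HOX peaks. There 18 fragments were counted with EVI1-WT and 23 with EVI1+18. This gave 0.77 per kept tag (95% interval 0.39 to 1.501). Its edges were the best matched of the HOX sites, with starts 9 bp and ends 16 bp apart. The EVI1+18 fold of 13.3 stood at the 93.3rd percentile of its list, and the EVI1-WT fold of 10.6 at the 84.1st percentile of its own.

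The HOXB site, at chr17:46667567-46667762 in EVI1-WT and chr17:46667598-46667803 in EVI1+18, had pileups of 19 and 21. That is the highest pileup of the EVI1-WT HOX peaks and the next to highest of EVI1+18. The ratio per kept tag was 0.90 (95% interval 0.46 to 1.75). Fold stood at the 82.6th percentile in EVI1-WT and the 88.9th in EVI1+18.

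The HOXC site, at chr12:54427328-54427495 in EVI1-WT and chr12:54427265-54427547 in EVI1+18, had a pileup of 16 in both. The EVI1-WT peak of 168 bp lay wholly within the EVI1+18 peak of 283 bp, and the summits were 89 bp apart. The HOXD site, at chr2:177010895-177011065 in EVI1-WT and chr2:177010839-177011047 in EVI1+18, had a pileup of 17 in both, with summits 1 bp apart. At the second HOXA site, the HOXC site and the HOXD site, where pileups were equal, the ratio per kept tag was 0.99, with 95% intervals of 0.45 to 2.17, 0.46 to 2.11 and 0.48 to 2.06.

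Summit pileup was thus equal at 3 of the 6 shared HOX sites, higher in EVI1+18 at 2 and higher in EVI1-WT at 1. Each list's pileup was read at its own summit. The summits lay 103 bp apart at the second HOXA site and 89 bp apart at the HOXC site. Both distances exceed the fragment lengths of 58 and 60 bp, so the equal pileups there count fragments at different positions. Pileups of the forms at a common position were not compared. Over all 173 one-to-one pairs of the lists, pileup was equal at 10.4%, higher in EVI1+18 at 49.7% and higher in EVI1-WT at 39.9%. The intervals of all 6 HOX ratios included 1. The lowest bound, 0.39, was that of the third HOXA site and the highest, 2.88, that of the first. At each site a difference within its own interval was not detectable at this depth. The median ratio was 0.99 at the HOX sites and 0.98 at the other 167 pairs. Only sites called in both lists have a ratio. A site too low to be called in 1 list is left out, which favours ratios near 1.

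**Figure D3:**
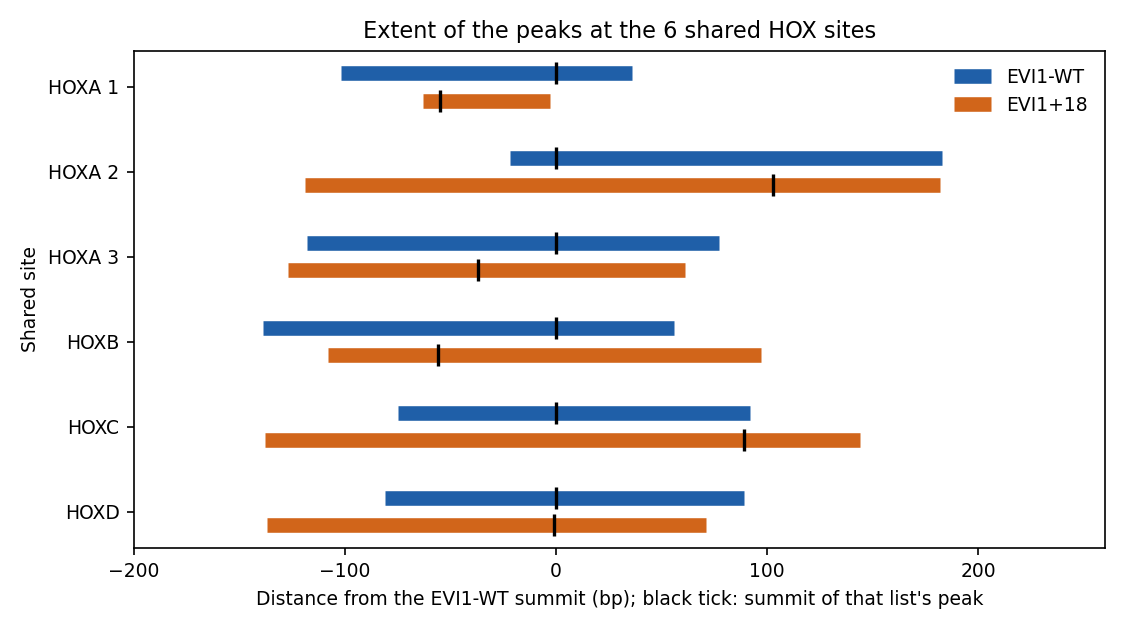
Extent of the peaks at the 6 shared HOX sites, as distance in bp from the EVI1-WT summit, with EVI1-WT above EVI1+18 at each site and a black tick at each summit. The HOXD summits lie 1 bp apart, while those of the second HOXA site and of the HOXC site lie 103 and 89 bp apart. The EVI1+18 peak is the longer at 4 of the 6 sites, and at 103 of all 173 one-to-one pairs of the lists.

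Fold enrichment ranked very differently in the lists at 2 of these sites although the pileups were equal. At the HOXC site the deposited fold was 4.36 in EVI1-WT, percentile 2.59 of its list, and 10.3 in EVI1+18, the 86.1st percentile. At the second HOXA site it was 5.45 in EVI1-WT, the 19.9th percentile, and 9.84 in EVI1+18, the 84.5th percentile. The other 4 sites ranked nearer to each other, with the first HOXA site next at the 57.3rd and 30.2nd percentiles.

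These gaps lay in the control background at the summit, which follows from the deposited fold and pileup. Taking fold as (pileup + 1) / (background + 1) gave backgrounds whose Poisson p-values matched the deposited −log10 p-values of all peaks within 3.5e-05. At the HOXC site the background was 2.90 fragments under the EVI1-WT summit and 0.64 under the EVI1+18 summit. At the second HOXA site it was 1.93 and 0.63. The values 2.90 and 1.93 are 3 and 2 times the ratio of kept ChIP tags to kept control tags in EVI1-WT (0.967), that is, the scaled weight of 3 and 2 control fragments. The EVI1+18 values are not such whole multiples, and the 0.63 at the second HOXA site is the lowest background of that list, shared by other peaks. Both lists used the same control library, but the summits of the 2 forms lay 89 bp apart at the HOXC site and 103 bp at the second HOXA site. The control was thus read at different positions, and the backgrounds at these 2 sites are not counts of the same kind. How much of the gap the shifted summits account for was not tested. With every background set to the lowest of its list, the fold was 10.6 in EVI1-WT and 10.5 in EVI1+18 at the HOXC site, and 9.93 and 9.84 at the second HOXA site. These near-equal folds follow from the formula, since the pileups were equal and the lowest backgrounds were 0.61 and 0.63.

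Backgrounds more than 2 times apart occurred at 2 of the 6 HOX pairs, where 5.2% of all 173 pairs had them. Elsewhere in the HOX windows the background ranged from 0.68 to 1.02 fragments in EVI1-WT and, over all 11 peaks, from 0.63 to 0.98 in EVI1+18, against list medians of 0.97 and 0.96. The control background under every HOX summit thus amounted to the scaled weight of 3 control fragments or fewer.

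The HOX peaks of 1 list only had pileups of 9 to 13 fragments. In EVI1-WT they were 2 in HOXC and 1 in HOXD. The HOXC peak at chr12:54431533-54431596 had a pileup of 12 and a fold of 7.03, and the nearest EVI1+18 peak was 3.99 kb away. The HOXC peak at chr12:54446074-54446180 had a pileup of 10 and a fold of 5.45, with the nearest EVI1+18 peak 18.5 kb away. The HOXD peak at chr2:177010766-177010825 had a pileup of 9 and a fold of 5.96. It lay 13 bp from the EVI1+18 peak of the shared HOXD site, so the extra EVI1-WT peak of HOXD is beside a place that both forms share.

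In EVI1+18 the peaks of 1 list only were 3 in HOXA, 1 in HOXB and 1 in HOXC. The HOXA peaks at chr7:27169463-27169526 and chr7:27195471-27195576 both had a pileup of 9, with folds of 5.11 and 6.15, and lay 7.95 and 7.67 kb from the nearest EVI1-WT peak. The HOXA peak at chr7:27204500-27204583 had a pileup of 12 and a fold of 8.00 (percentile 68.2 of its list) and lay 1.06 kb from the EVI1-WT peak of the third HOXA site. Together with the shared sites, the EVI1+18 peaks of HOXA spanned 43.1 kb from first to last summit, spaced by 1.2 to 15.5 kb, and the EVI1-WT peaks spanned 41.9 kb.

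The HOXB peak of EVI1+18 alone, at chr17:46654950-46655082, had a pileup of 12 and a fold of 6.64 and lay 12.5 kb from the nearest EVI1-WT peak. The HOXC peak of EVI1+18 alone, at chr12:54422770-54422838, had a pileup of 13, equal to the median of its list, and a fold of 8.37 (percentile 74.2), the highest fold of the HOX peaks without a partner, and lay 4.49 kb from the shared HOXC site of EVI1-WT.

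A peak missing from a list is not a pileup of 0, since the lists give no value where no peak was found. The lowest pileup listed anywhere was 8 in EVI1-WT and 7 in EVI1+18. The pileup of the other form at these 8 places is not known here, so whether they differ between the EVI1 forms was not tested.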

How the data were processed

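ChIP-seq peak lists of 2 HEK293T libraries (EVI1-WT and EVI1+18) were used. Per the file headers, the authors ran MACS 2.0.10.20120913 per library with a q-value cutoff of 0.05 against 1 input library of mock cells (29153787 control tags kept), with at most 1 tag per position, and with fragment lengths of 58 and 60 bp. Per the submitters' processing notes, hg19 was the build. The aligner's version is not given in the sources used here. The signal that the authors deposited, the pileup, counts fragments at the summit and held whole numbers throughout. The fold enrichment they deposited is a ratio to the control background, and significance is given in deposited columns as −log10 of the p-value and the q-value.

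From these files, HOX peaks were taken by summit, overlaps of at least 1 bp were counted, and pileups were divided by kept tags. Stretches of 140 kb were counted over the effective genome size of 2.7 Gb stated in the headers. No test between the forms was possible with 1 library each. Overlap counting was checked on simulated lists with small planted shifts only, so the larger edge differences of real pairs were not covered by that check. All peaks in the windows are named. The members, windows, motifs and summaries were chosen with earlier results of these data known. Lists of HOX cofactors, ParaHox genes and HOX regulators were to be counted only with an hg19 annotation, which was not used here. Alternatives were other thresholds, windows, overlap rules and scalings. Computation used SciPy 1.17.1, numpy 2.4.6 and pandas 2.3.3 under Python 3.11.15, with figures from matplotlib 3.10.9.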

Additional observations from a re-analysis of the deposited data

How the results depend on the processing

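Of 65 alternative values, 56 stayed within 1.5 times of a reported count or length, or within the counting interval of the reported ratio. With −log10 q raised to 5 or more, the HOX windows kept 5 EVI1-WT peaks, with 1 in HOXC and 1 in HOXD, and 8 EVI1+18 peaks, with 3 in HOXA, 2 in HOXC and 1 in HOXD. It also left 3 shared HOX peaks in each list and a covered length of 766 bp in EVI1-WT. The second HOXA site and the HOXC site lost their EVI1-WT peak there, at −log10 q values of 4.65 and 3.10, and the first HOXA site lost its EVI1+18 peak, at 4.42. Joining peaks less than 500 bp apart left 1 EVI1-WT peak in HOXD. The median pileup ratio of 0.99 became 1.02 when divided by fragment length as well, since that length differed between the libraries. With no division the median ratio was 1. The move from below 1 to above 1 was counted as a reversal, although the intervals of all 6 HOX ratios included 1. Widening the windows by 50 kb added no peak. No paired analysis was possible because there was 1 library per form, so none could be left out either. Pileups below 8 in EVI1-WT and 7 in EVI1+18 were not listed.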
